A study of Mus musculus with 40 samples.

Results

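Genes that carry out mitochondrial protein import, protein quality control inside mitochondria, and mitochondrial fusion and fission were followed in mRNA-seq libraries of mouse extensor digitorum longus (EDL), a fast-twitch muscle of the hindlimb. The members were all genes whose symbol starts with Tomm or Timm and a digit, plus 15 genes chosen by name (Hspd1, Hspe1, Hspa9, Lonp1, Clpp, Clpx, Yme1l1, Afg3l2, Spg7, Opa1, Mfn1, Mfn2, Dnm1l, Fis1 and Mff), and they had to reach 1 CPM (read counts scaled to the size of the library) in at least 5 of the 40 libraries. The CPM values printed have TMM scaling, except the sums of cell type markers. Of 41 names that matched, 38 passed and were tested, among 13543 genes that passed the same filter and 22844 genes in the table. The names below the filter were Tomm20l with 0 to 1 counts, Timm8a2 with 0 to 2 counts and Tomm6os, which reached 1 CPM in 1 library. By role, the 38 members comprised 8 genes of the translocase of the outer membrane (TOM), the cytosolic co-chaperone Tomm34, 5 small TIM chaperones, 3 genes of the carrier translocase TIM22, 6 genes of the presequence translocase TIM23 and its motor, 3 matrix chaperones, 6 genes of mitochondrial proteases, 3 fusion genes and 3 fission genes.

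The 40 libraries formed 8 groups of 5. The study describes each muscle as taken from a separate mouse. The groups crossed genotype (CON or TSCmKO), age (3 or 9 months, written 3m or 9m) and a 3-day treatment with vehicle or rapamycin (+RM), which the labels give as 4 mg/kg by intraperitoneal injection, while the study's text gives another dose. All mice carried the floxed Tsc1 allele (strain label Tsc1tm1Djk/J). CON mice (Tsc1fl/fl) were littermates without Cre recombinase, and TSCmKO mice lacked Tsc1 in skeletal muscle fibers. The driver of Cre is not given in the sources used here. RNA came from lysates of the whole muscle, so the loss of Tsc1 concerned only part of the cells behind each library. Tsc1 encodes a subunit of the complex that restrains the growth kinase mTORC1, rapamycin inhibits mTORC1, and the comparisons ask which transcripts differ when mTORC1 is active without restraint in muscle fibers and which respond to its short inhibition.

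Most mitochondrial proteins are made in the cytosol and cross the outer membrane through the TOM pore. From there the TIM23 complex moves proteins with a cleavable presequence into the matrix, where Hspa9 pulls them in and the chaperonin formed by Hspd1 and Hspe1 folds them, whereas the small TIM chaperones escort membrane proteins across the intermembrane space to the TIM22 complex. Proteases of the matrix and inner membrane degrade damaged or surplus proteins, the mitofusins and Opa1 join the outer and inner membranes of neighbouring mitochondria, and Dnm1l with its receptors Fis1 and Mff divides them. In muscle fibers these systems maintain a dense mitochondrial network between the myofibrils.

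Promoter sequences were read for the members on which the rapamycin comparisons turned (Timm17a, Clpx and Dnm1l) and for Hspe1, which has a start site next to that of its partner Hspd1. Each line gives the 250 bases before the RefSeq start in the direction of transcription (RefSeq, GRCm38.p6), at chr1:135313738-135313987 on the minus strand for Timm17a, chr9:65294010-65294259 on the plus strand for Clpx, chr16:16359032-16359281 on the minus strand for Dnm1l and chr1:55087898-55088147 on the plus strand for Hspe1. Capitals mark matches to the 7 motifs that were searched.
Timm17a: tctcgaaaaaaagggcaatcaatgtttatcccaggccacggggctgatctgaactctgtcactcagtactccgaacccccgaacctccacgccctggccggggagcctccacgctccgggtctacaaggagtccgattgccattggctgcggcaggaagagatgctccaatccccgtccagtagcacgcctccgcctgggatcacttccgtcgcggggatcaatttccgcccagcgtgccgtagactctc
Clpx: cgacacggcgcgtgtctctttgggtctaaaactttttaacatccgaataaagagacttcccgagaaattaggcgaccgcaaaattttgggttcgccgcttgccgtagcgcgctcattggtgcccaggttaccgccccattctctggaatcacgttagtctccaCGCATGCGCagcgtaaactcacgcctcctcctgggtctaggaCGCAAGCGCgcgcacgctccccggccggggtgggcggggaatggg
Dnm1l: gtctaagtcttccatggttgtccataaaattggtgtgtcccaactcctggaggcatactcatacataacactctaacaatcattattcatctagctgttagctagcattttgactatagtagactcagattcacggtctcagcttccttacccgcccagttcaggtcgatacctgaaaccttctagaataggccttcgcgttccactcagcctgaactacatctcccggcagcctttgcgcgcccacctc
Hspe1: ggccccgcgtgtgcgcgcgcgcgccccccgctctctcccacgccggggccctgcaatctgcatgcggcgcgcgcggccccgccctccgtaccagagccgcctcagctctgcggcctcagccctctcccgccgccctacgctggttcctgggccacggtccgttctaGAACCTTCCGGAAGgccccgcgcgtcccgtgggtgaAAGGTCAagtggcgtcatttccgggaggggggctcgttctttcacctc

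The motifs were searched on both strands of the window from 250 bases before to 50 bases after the start, which the table gave for 33 of the 38 members and for 10371 genes. Motifs of the nuclear respiratory factors were found as follows. The NRF1 motif GCGCNTGCG was in 9 of the 33 member promoters (27.3%) and in 13.5% of all promoters, and the ETS motif of GABPA, CCGGAAG, in 13 (39.4%) and 17.4%. The ERR motif AAGGTCA was in 4 member promoters (12.1%) against 3.01% of all, the YY1 motif ATGGCGG in 5 (15.2%) against 8.003%, and the E-box CACGTG in 6 (18.2%) against 10.1%. The heat shock element GAANNTTC was in 2 member promoters, those of Hspe1 and Timm9 (6.06%), against 5.67% of all, and the ATF4 motif TGATGNAAT was in none of the 33 against 0.463% of all. Clpx held the NRF1 motif at 2 places, starting at positions -87 and -45 relative to the start. Hspe1 held 2 overlapping ETS motifs, starting at positions -80 and -77, a heat shock element that overlaps them at position -84, and an ERR motif at position -48. The windows of Timm17a and Dnm1l held none of the 7 motifs. The annotated genes Hspd1 (minus strand, chr1:55077835-55088243) and Hspe1 (plus strand, chr1:55088132-55091307, GRCm38) overlap at their starts on opposite strands, and reads were assigned by strand. These matches are letters in a window and were not tested as binding sites.

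Library totals ran from 8883870 to 35224669 estimated counts. Replicate 1 stood apart in both 9-month knockout groups, with correlations of log levels across genes of 0.934 to 0.939 with the other 9mTSCmKO libraries, which had 0.968 to 0.988 among themselves, and of 0.960 to 0.970 in 9mTSCmKO+RM, beside 0.983 to 0.990 among the others. Tsc1 itself, the gene removed in the knockout, lay between 51.3 and 134 CPM in the 20 CON libraries and between 17.8 and 35.8 CPM in the 20 TSCmKO libraries, so the genotypes did not overlap. Markers of skeletal muscle fiber (6 of 6 in the table, none at 0) summed to 130100 to 145800 CPM in 9mCON and 92820 to 107500 CPM in 9mTSCmKO, to 127800 to 139400 CPM in 9mTSCmKO+RM, and to 96720 to 139600 CPM in 3mTSCmKO against 134300 to 160200 CPM in 3mTSCmKO+RM. Markers of fibroblasts (3 of 3, none at 0) summed to 638.0 to 1184 CPM in 9mCON and lay without overlap below that in 9mCON+RM (93.6 to 452 CPM) and in 9mTSCmKO+RM (277 to 537 CPM). Markers of tendon (4 of 4, none at 0) did the same, with 41.1 to 337 CPM in 9mCON, 10.04 to 31.97 CPM in 9mCON+RM and 12.9 to 39.7 CPM in 9mTSCmKO+RM. Macrophage markers (3 of 3, none at 0) were at 10.6 to 36.8 CPM in 9mCON and 1.53 to 8.88 CPM in 9mCON+RM, and adipocyte markers (3 of 3, none at 0) at 7.45 to 16.4 CPM in 9mCON and 1.69 to 7.19 CPM in 9mTSCmKO. These marker sums are CPM without TMM scaling, and overlap on the TMM scale was not examined. In whole-muscle RNA, fewer cells of a type and less RNA per cell cannot be told apart, and the part of these marker differences in the results was not tested. The labels give mean insert sizes of 175 to 239 nt for the 3-month libraries and 223 to 308 nt for the 9-month libraries, so insert size moved with age.

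On the TPM scale, which divides counts by transcript length and scales each library to the same sum, Timm23, the pore of the presequence translocase, was the most abundant member in 3mCON at 702.8 ± 65.8 TPM (SD, n = 5), and its libraries did not overlap those of the next gene. Mfn2 at 425 ± 48.4 TPM, Hspa9 at 414 ± 46.6 TPM, Mfn1 at 341 ± 38.1 TPM and Hspd1 at 285 ± 35.1 TPM followed, each overlapping its neighbour in the order, and a gap without overlap separated Hspd1 from Mff at 188 ± 17.0 TPM. The lowest levels were those of Timm10 at 23.8 ± 4.25 TPM, Timm8a1 at 15.3 ± 2.03 TPM and Tomm34 at 15.2 ± 2.58 TPM. On the CPM scale, where only the same gene is compared between groups, the highest group mean exceeded the lowest by 1.22-fold for Timm29, 1.23-fold for Lonp1 and 1.26-fold for Timm44, the most even members, and by 2.70-fold for Tomm7, 2.54-fold for Timm10 and 2.05-fold for Timm22. Coefficients of variation within a group ran from 1.88% to 8.69% for Timm17a, which had the smallest highest value of the members, with a median over the 8 groups of 7.08% beside 6.79% for Lonp1 and 6.94% for Timm44. They were widest for Tomm7, with values up to 84.8%.

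**Figure D1:**
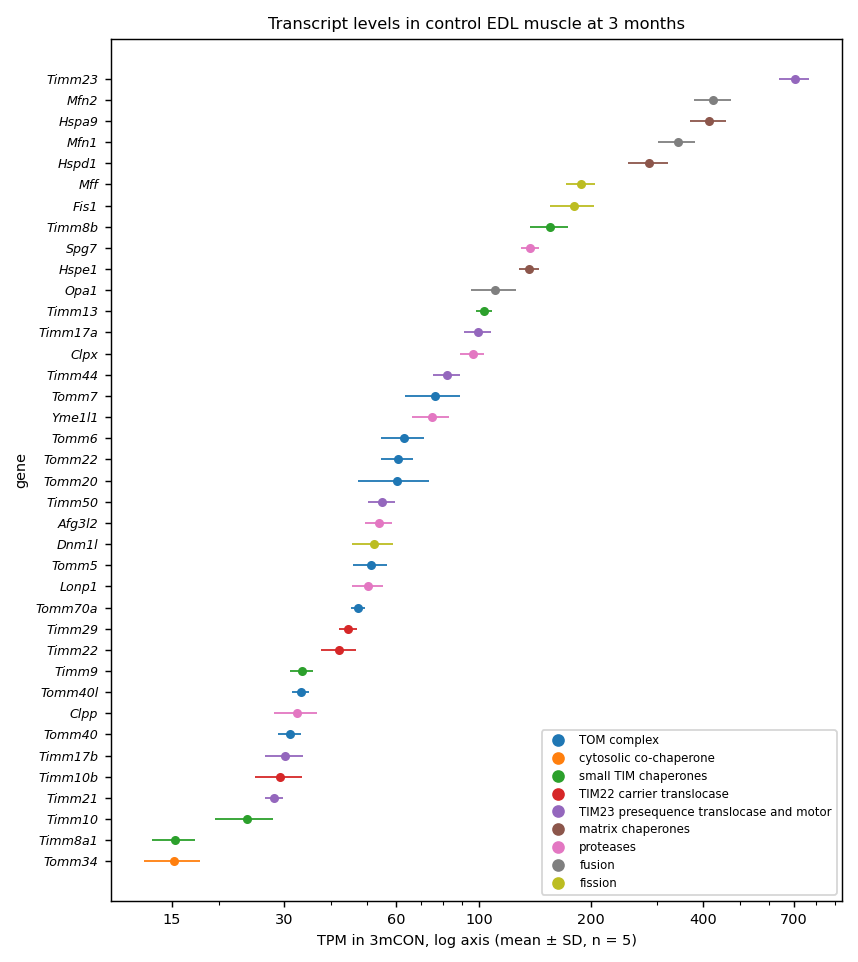
Levels of the 38 genes in the 5 libraries of 3mCON in TPM on a logarithmic axis, as mean (point) and SD (line), coloured by role. Timm23 stands highest at 702.8 TPM, and Timm10, Timm8a1 and Tomm34 lie below 25 TPM.

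Loss of Tsc1 at 9 months changed few members by the edgeR quasi-likelihood test at an adjusted p of 0.05. Log2 fold changes are given ± SE and levels ± SD, and called or not called refers to the edgeR fit of all 8 groups and 40 libraries unless another fit is named. Timm10, Afg3l2, Timm8a1, Clpp and Lonp1 rose and Timm21 fell, 5 and 1 of 38, whereas 37.9% of all genes tested were called (19.1% higher, 18.9% lower). Without replicate 1 of 9mTSCmKO 7 rose and 1 fell, and the share of all genes called in that fit is not given here. The median log2 fold change was 0.07 over the members and -0.02 over all genes. At 3 months Timm10 rose and Hspd1 and Hspa9 fell, 1 and 2 of 38, against 19.8% of all genes (11.4% higher, 8.32% lower), with medians of 0.04 and -0.02. Leaving out 1 library gave 0 to 1 higher and 0 to 2 lower at 3 months, and Hspd1 was lost in 9 of 10 such fits.

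With rapamycin in TSCmKO muscle, the share of members called lower was near that of all genes at 9 months, and Timm17a, Dnm1l, Clpx, Fis1 and Timm22 fell at both ages. For Fis1 and Timm22 the 3-month call was lost in 9 and 8 of the 10 fits leaving out 1 library. At 9 months 2 members rose (Timm21 and Spg7) and 6 fell (Tomm5, Timm17a, Fis1, Dnm1l, Timm22 and Clpx), with 32.6% of all genes called (15.8% higher, 16.8% lower). Without replicate 1 of 9mTSCmKO+RM 1 rose and 12 fell (the 6 named and Timm9, Tomm22, Timm10, Tomm7, Tomm6 and Timm8a1), and without replicate 1 of 9mTSCmKO 0 rose and 8 fell. The shares of all genes called in these fits are not given here, so neither count has a background beside it. At 3 months 1 member rose (Clpp) and 8 fell (Timm17a, Mfn2, Clpx, Mfn1, Dnm1l, Timm22, Mff and Fis1), with 23.6% of all genes called (10.6% higher, 13.0% lower). With upper-quartile scaling the 3-month calls over all genes split into 1810 higher and 1438 lower, compared with 1435 higher and 1761 lower under TMM scaling, and 5 of the 38 members were then lower. The median log2 fold change was -0.19 over the members and -0.05 over all genes at 9 months, and -0.10 and 0.01 at 3 months. At each age 10 of the 38 members lay above 0, beside 6217 of the 13543 genes at 9 months and 6921 at 3 months.

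In CON muscle, rapamycin lowered Dnm1l and Timm17a at 9 months, 2 of 38 members against 11.8% of all genes (5.03% higher, 6.82% lower), and Dnm1l at 3 months, 1 of 38 against 0.679% (0.362% higher, 0.318% lower). The 3-month call was lost in each of the 10 fits leaving out 1 library and under 5 other alternatives. No member was called higher in CON muscle by edgeR or DESeq2 at either age. In either direction, 4 members at 9 months and 6 at 3 months had an unadjusted edgeR p under 0.05. Of all 13543 genes, 3304 at 9 months and 1216 at 3 months did.

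**Figure D2:**
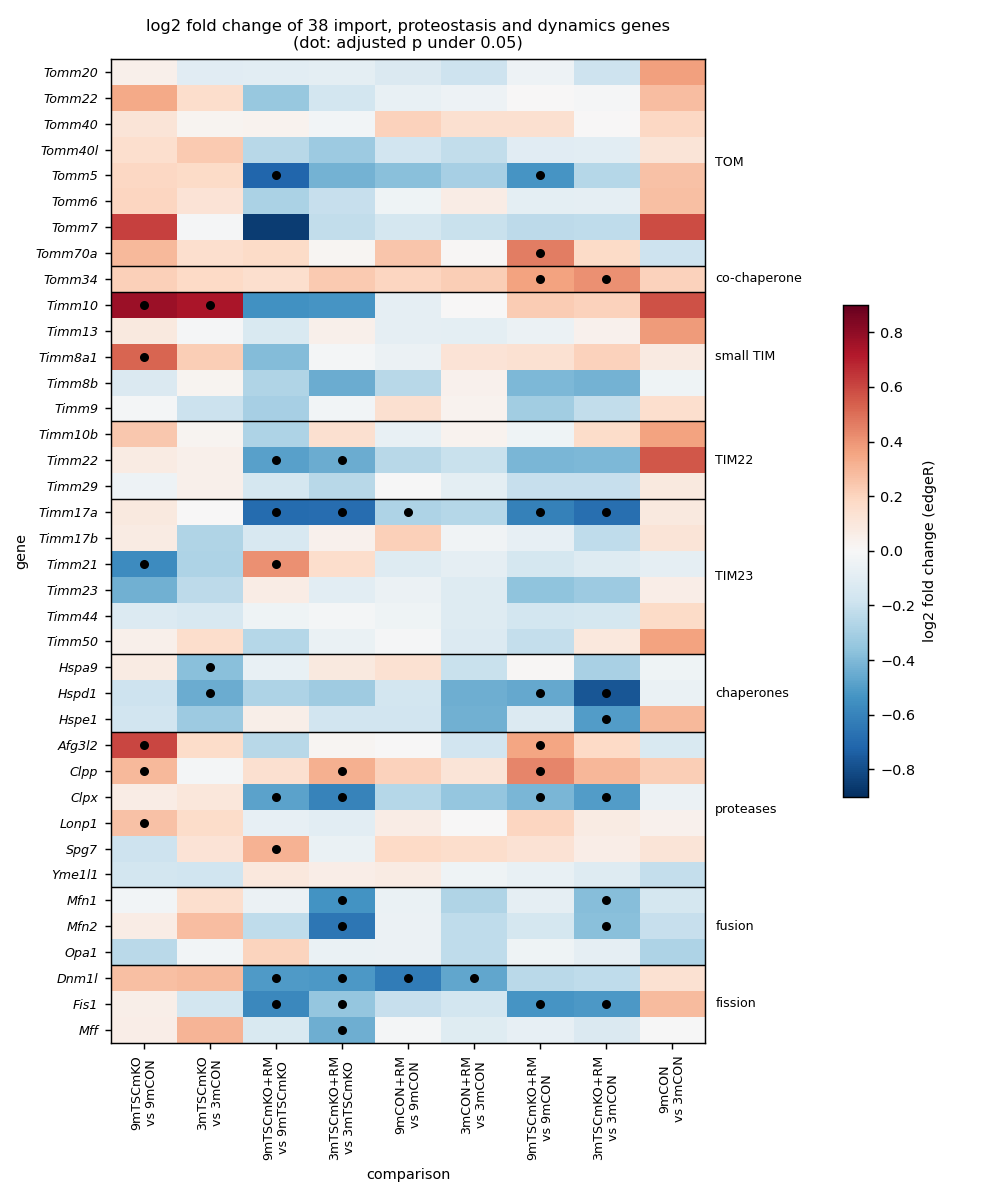
Log2 fold change of each of the 38 genes (rows, grouped by role) in the 9 pairwise comparisons (columns), with red for higher and blue for lower in the first group named and a black dot where the adjusted edgeR p was under 0.05. Dots in the rapamycin columns of TSCmKO muscle lie mostly on blue cells (6 of 8 at 9 months and 8 of 9 at 3 months), and Timm17a and Dnm1l are the rows with dots in a CON rapamycin column.

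Among the TOM genes, Tomm5, a small subunit that stabilises the pore, was the one called for rapamycin in TSCmKO muscle. Its levels in 9mTSCmKO were 17.95, 21.0, 31.7, 24.8 and 23.3 CPM, and in 9mTSCmKO+RM 18.7, 15.1, 10.01, 14.5 and 14.1 CPM (replicates 1 to 5, here and below). Of the treated libraries, 4 lay below all vehicle libraries and replicate 1 overlapped them. The log2 fold change was -0.72 ± 0.18 (adjusted p 0.00205). At 3 months the levels were 14.2, 17.7, 17.9, 28.4 and 19.4 CPM with vehicle and 16.7, 17.1, 14.3, 13.6 and 11.2 CPM with rapamycin, ranges that overlapped, and the log2 fold change of -0.43 ± 0.18 (adjusted p 0.0790) missed the threshold and was called in 1 of 18 alternatives.

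The pore gene Tomm40 and its paralog Tomm40l were not called in any comparison in that fit. Tomm40 lay at 20.7, 30.8, 22.98, 25.1 and 23.7 CPM in 9mCON, 24.8, 24.01, 32.5, 28.4 and 23.9 CPM in 9mTSCmKO and 37.2, 23.9, 26.2, 23.4 and 25.7 CPM in 9mTSCmKO+RM, and the groups overlapped. Tomm40l lay at 38.6, 43.5, 46.4, 61.1 and 56.3 CPM in 3mTSCmKO and 46.5, 42.7, 37.2, 36.04 and 33.7 CPM in 3mTSCmKO+RM, and these ranges also overlapped, with a log2 fold change of -0.33 ± 0.13 (adjusted p 0.0555) that was called in 5 of 18 alternatives, DESeq2 and edgeR without replicate 1 of 3mTSCmKO (-0.389, adjusted p 0.0264) among them. Of the summed TPM of the pair, Tomm40 held between 44.5 ± 4.51% (3mTSCmKO) and 56.8 ± 2.13% (9mCON+RM) as group means ± SD. The share ran from 47.5% to 52.9% in the 9mCON libraries and from 55.0% to 59.3% in the 9mCON+RM libraries, which did not overlap.

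The remaining TOM genes were Tomm20 and Tomm70a, receptors for incoming proteins, Tomm22, a receptor and organiser of the complex, and the small subunits Tomm6 and Tomm7. All 8 TOM genes had a log2 fold change above 0 in 9mTSCmKO against 9mCON, from 0.05 (Tomm20) to 0.62 (Tomm7), and none passed the edgeR threshold, although 2 had an unadjusted p under 0.05. Of all 13543 genes in that comparison, 6527 lay above 0 and 6299 had an unadjusted edgeR p under 0.05. DESeq2 called Tomm70a higher in that comparison, as did 6 of 18 alternatives in all, and Tomm22 was called in 3 of 18, TPM with limma among them (0.397, adjusted p 0.0108). Tomm7 spread too widely to compare, from 30.99 to 171 CPM in 9mCON and from 47.7 to 213 CPM in 9mTSCmKO, and without replicate 2 of 9mCON, the highest of its group, its log2 fold change was 1.29 with an adjusted edgeR p of 0.00719. Tomm34, which binds precursor proteins and chaperones in the cytosol, differed from CON in neither untreated comparison and was higher in rapamycin-treated TSCmKO muscle than in CON at both ages (described further on).

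Of the 5 small TIM chaperones, Timm10 had the largest rise with Tsc1 loss among the members. It lies at chr2:84826997-84830213 on the plus strand (GRCm38) and pairs with Timm9 in the ring that carries hydrophobic proteins across the intermembrane space. Levels were 10.5, 16.6, 12.9, 12.5 and 8.68 CPM in 9mCON and 13.6, 17.7, 31.1, 21.7 and 19.7 CPM in 9mTSCmKO. The knockout libraries were higher with an overlap between the lowest of them and the highest CON library, and the log2 fold change was 0.77 ± 0.22 (adjusted p 0.00518). At 3 months the levels of 6.66, 6.82, 9.91, 9.02 and 8.36 CPM in 3mCON and 10.4, 11.7, 10.8, 19.5 and 15.5 CPM in 3mTSCmKO did not overlap, with a log2 fold change of 0.73 ± 0.22 (adjusted p 0.0147). Without replicate 4 of 3mTSCmKO, the highest library, this value was 0.56 with an adjusted p of 0.0827.

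After rapamycin Timm10 lay at 21.6, 15.8, 9.08, 13.5 and 11.5 CPM in 9mTSCmKO+RM and 10.3, 10.4, 10.5, 8.87 and 7.23 CPM in 3mTSCmKO+RM, and overlapped both the untreated knockouts and CON. The differences from the untreated knockouts missed the threshold at both ages, with log2 fold changes of -0.54 ± 0.22 (adjusted p 0.0509) and -0.53 ± 0.22 (adjusted p 0.0753). The 9-month difference was called in 8 of 18 alternatives, with -0.735 (adjusted p 0.00976) without replicate 1 of 9mTSCmKO+RM and -0.555 (adjusted p 0.0188) on TPM with limma, and the 3-month one in 1. Timm9, its partner in the ring, had a log2 fold change of -0.01 in 9mTSCmKO against 9mCON and -0.19 at 3 months, and neither was called. Without replicate 1 of 9mTSCmKO+RM, Timm9 was called lower in that group than in 9mTSCmKO (-0.451, adjusted p 0.0162) and in 9mCON (-0.465, adjusted p 0.0136).

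Timm8a1, the mouse counterpart of the human gene altered in a deafness and dystonia syndrome, was measured at 10.3, 15.2, 12.6, 13.6 and 9.50 CPM in 9mCON and 18.9, 13.9, 24.6, 17.8 and 12.8 CPM in 9mTSCmKO. At 3 months it was at 10.9, 9.64, 13.6, 12.02 and 11.4 CPM in 3mCON and 11.8, 11.04, 12.4, 17.1 and 14.8 CPM in 3mTSCmKO. The genotypes overlapped at both ages, and the gene rose at 9 months with a log2 fold change of 0.53 ± 0.18 (adjusted p 0.0204). The call was lost without replicate 1 or 5 of 9mCON or replicate 3 of 9mTSCmKO, with 0.38 and an adjusted p of 0.0967 without the last, and in a fit of only the groups compared. Timm13, the partner of the Timm8 proteins, and Timm8b were not called in any comparison, although a fit of only the groups compared called Timm8b lower in 3mTSCmKO+RM against 3mTSCmKO (-0.448, adjusted p 0.0236) and against 3mCON (-0.406, adjusted p 0.0245). Over the 40 libraries Timm10 and Timm8a1 averaged 12.3 and 13.2 CPM.

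**Figure D3:**
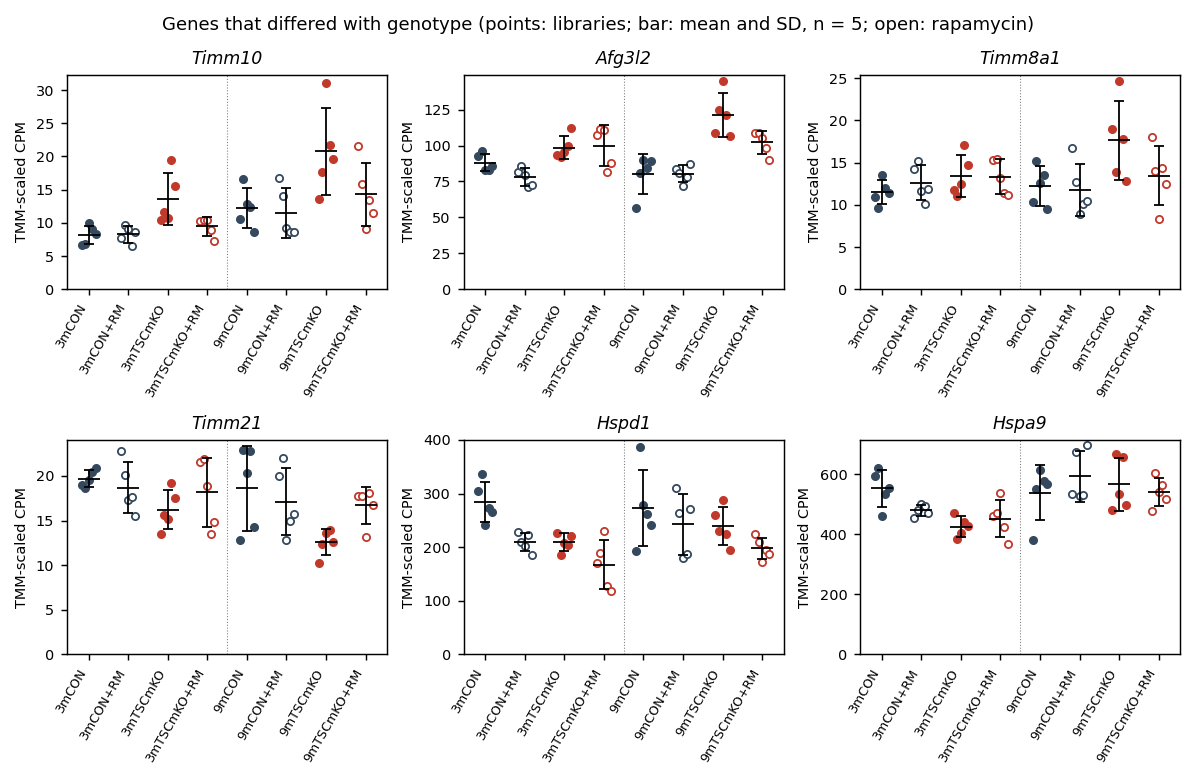
TMM-scaled CPM of 6 genes called for genotype at 9 or 3 months, in every library (points, red for TSCmKO, blue for CON, open for rapamycin) with the group mean and SD (bars, n = 5). Afg3l2 separates without overlap in 9mTSCmKO and 9mCON, and Timm10 and Hspd1 in 3mTSCmKO and 3mCON, with the other genotype differences overlapping.

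In the TIM22 group, the pore gene Timm22 fell with rapamycin in TSCmKO muscle at both ages. It was at 43.1 to 68.9 CPM in 9mTSCmKO and 26.3 to 49.2 CPM in 9mTSCmKO+RM, which overlapped, and the log2 fold change was -0.49 ± 0.17 (adjusted p 0.0230). At 3 months it was at 31.6 to 43.9 CPM with vehicle and 23.8 to 31.1 CPM with rapamycin, which did not overlap, with -0.45 ± 0.17 (adjusted p 0.0484). The 9-month call was lost without replicate 3 of 9mTSCmKO or replicate 3 or 4 of 9mTSCmKO+RM, and the 3-month call in 8 of the 10 fits leaving out 1 library of the groups compared (3mTSCmKO replicates 1, 3, 4 and 5 or 3mTSCmKO+RM replicates 1, 3, 4 and 5), with least-supported values of -0.37 (adjusted p 0.0953) and -0.37 (adjusted p 0.148). The 9-month call was also lost in a fit of only the groups compared, and the 3-month call with RLE size factors, with upper-quartile scaling, without the filter and with insert size as a term. Timm29, a scaffold subunit, and Timm10b, which docks the small TIM ring on the complex, were not called in any comparison. Timm29 was called lower in 2 of 18 alternatives in 3mTSCmKO+RM against 3mTSCmKO (-0.304, adjusted p 0.0389 without replicate 1 of 3mTSCmKO+RM) and in 1 of 18 in 9mTSCmKO+RM against 9mCON (-0.282, adjusted p 0.0418 without replicate 2 of 9mTSCmKO+RM).

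Timm17a, a subunit of the TIM23 channel, had the smallest adjusted p of all members in both comparisons of rapamycin-treated with untreated TSCmKO muscle. The gene lies at chr1:135295213-135313778 on the minus strand (GRCm38). In 9mTSCmKO its levels were 161, 153, 144, 173 and 177 CPM, and in 9mTSCmKO+RM 105, 104, 85.6, 104 and 100.3 CPM. At 3 months they were 137, 129, 147, 162 and 143 CPM in 3mTSCmKO and 97.6, 86.3, 89.1, 87.1 and 85.8 CPM in 3mTSCmKO+RM. At both ages every treated library lay below every untreated one. The log2 fold change was -0.70 ± 0.08 (adjusted p 1.53e-08) at 9 months and -0.69 ± 0.08 (adjusted p 1.98e-08) at 3 months, and neither call was lost under any alternative tried.

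In CON muscle Timm17a was at 150.1, 153, 148, 159 and 151 CPM with vehicle and 125, 124, 109, 133 and 137 CPM with rapamycin at 9 months. The corresponding 3-month levels were 138, 156, 143, 146 and 133 CPM and 122, 118, 117, 122 and 121 CPM. Treated and untreated libraries did not overlap at either age. The 9-month difference passed the threshold (-0.28 ± 0.08, adjusted p 0.0161), and the 3-month difference of -0.26 ± 0.08 (adjusted p 0.151) did not, although DESeq2 called it. The 9-month call was lost without replicate 3 of 9mCON+RM, the lowest treated library (-0.23, adjusted p 0.0519), without the filter and in a fit of the 2 groups alone. Vehicle-treated TSCmKO and CON muscle overlapped, and Timm17a was not called for genotype at either age (log2 fold changes 0.09 ± 0.08, adjusted p 0.409 and 0.01 ± 0.08, adjusted p 0.973).

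The counts of Timm17a fell further with rapamycin in TSCmKO than in CON muscle. The difference between the 2 responses was -0.42 ± 0.11 (adjusted p 0.0215) on the log2 scale at 9 months and -0.43 ± 0.11 (adjusted p 0.0195) at 3 months, 1 of 38 members called lower at each age, with 4.87% of all genes called at 9 months (2.56% higher, 2.31% lower) and 3.45% at 3 months (1.36% higher, 2.09% lower). On the TPM scale, tested with limma on log2(TPM + 1), the fall in TSCmKO muscle was smaller, -0.48 (adjusted p 0.000425) in 9-month and -0.47 (adjusted p 0.00078) in 3-month muscle, and in 9mCON it was -0.36 (adjusted p 0.0213). In 3-month CON muscle Timm17a was at 99.4 ± 8.45 TPM with vehicle and 82.4 ± 2.26 TPM with rapamycin, and was not called on this scale. The difference between the responses was then -0.12 (adjusted p 0.702) in the 9-month groups and -0.21 (adjusted p 0.6002) in the 3-month groups, so it was called on counts and not on TPM. TPM divides by the length of the transcripts to which reads were assigned, and the annotation lists coding transcripts of 7280, 636 and 468 nt for Timm17a. The ratio of CPM to TPM was 1.60 ± 0.239 in 9mTSCmKO and 1.38 ± 0.126 in 9mTSCmKO+RM, 1.34 ± 0.0723 and 1.16 ± 0.111 in the 3-month pair, and 1.73 ± 0.138 in 9mCON and 1.82 ± 0.0491 in 9mCON+RM. In 3mCON it was 1.446 ± 0.124 and in 3mCON+RM 1.455 ± 0.0541. Per library the ratio ran from 1.22 to 1.51 in 9mTSCmKO+RM and from 1.76 to 1.89 in 9mCON+RM, without overlap. What moves this ratio was not tested. The count-based interaction was also lost without replicate 3 of 9mTSCmKO+RM (-0.37, adjusted p 0.0534) and without replicate 4 of 3mTSCmKO (-0.38, adjusted p 0.0538), at both ages without the filter, and at 9 months in a fit of only the groups compared.

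The TPM of Timm17a in the libraries was 80.3, 105, 93.8, 107 and 127 in 9mTSCmKO and 71.9, 69.3, 67.7, 71.6 and 82.1 in 9mTSCmKO+RM. In 9mCON it was 76.2, 90.9, 87.9, 96.1 and 91.7 and in 9mCON+RM 66.2, 70.7, 59.9, 71.8 and 75.8. On this scale the treated and untreated knockouts overlapped by 1 library each, and the CON groups did not overlap.

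Timm17b, the X-linked paralog of Timm17a, was not called in any comparison. Its levels were 37.04, 22.8, 35.8, 23.7 and 25.8 CPM in 9mTSCmKO and 37.2, 23.2, 20.99, 26.3 and 23.9 CPM in 9mTSCmKO+RM, and 18.1, 21.6, 19.7, 20.2 and 25.6 CPM and 24.2, 23.2, 20.1, 19.9 and 20.99 CPM in the 3-month pair. Treated and untreated libraries overlapped at both ages. Timm17a made up 80.5 ± 2.67% of the summed TPM of the pair in 3mTSCmKO and 74.1 ± 0.493% in 3mTSCmKO+RM, which did not overlap, and 77.1 ± 5.04% and 72.2 ± 2.94% in the 9-month pair, which did. Of all 31-base words in the transcripts of the genes, 2.48% in Timm17a and 7.43% in Timm17b also occurred in another gene.

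Timm21, a TIM23 subunit that contacts the respiratory chain, was the member that fell with Tsc1 loss at 9 months. Levels were 12.9, 22.9, 20.3, 22.8 and 14.3 CPM in 9mCON, 10.3, 12.4, 13.6, 13.9 and 12.6 CPM in 9mTSCmKO and 17.8, 17.8, 13.2, 18.1 and 16.8 CPM in 9mTSCmKO+RM. The untreated knockouts were the lowest of the 3 groups and overlapped CON only through its replicate 1 and the treated group only through its replicate 3. The log2 fold change was -0.57 ± 0.16 (adjusted p 0.00396) against 9mCON. Against the untreated knockouts, the rise after rapamycin was 0.41 ± 0.16 (adjusted p 0.0395), and this call was lost in 7 of the 10 fits leaving out 1 library (9mTSCmKO replicates 1, 2 and 5 or 9mTSCmKO+RM replicates 1, 2, 4 and 5), with 0.34 and an adjusted p of 0.117 at the least, and in a fit of only the groups compared. At 3 months the levels of 19.04, 18.7, 19.5, 20.4 and 20.9 CPM in 3mCON and 13.5, 15.7, 15.2, 19.2 and 17.5 CPM in 3mTSCmKO overlapped and the gene was not called. Timm23, the pore, Timm50, a receptor, and Timm44, which tethers the import motor, were not called in any comparison, with log2 fold changes between -0.43 and 0.36 across the 9 pairwise comparisons. Timm23 was called lower in 1 of 18 alternatives in each of 3 comparisons, 9mTSCmKO against 9mCON (-0.548, adjusted p 0.0368 without replicate 3 of 9mTSCmKO), 9mTSCmKO+RM against 9mCON (-0.523, adjusted p 0.0470 without replicate 1 of 9mTSCmKO+RM) and 3mTSCmKO+RM against 3mCON (-0.313, adjusted p 0.0213 with only the groups compared). Timm44 was called lower in 3mTSCmKO against 3mCON without replicate 5 of 3mTSCmKO (-0.252, adjusted p 0.0465).

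Of the 3 matrix chaperones, Hspd1 and Hspa9 fell with Tsc1 loss at 3 months. Hspd1, the chaperonin of the matrix, was at 305, 336, 242, 273 and 265 CPM in 3mCON and 227, 185, 207, 204 and 222 CPM in 3mTSCmKO, which did not overlap, with a log2 fold change of -0.44 ± 0.16 (adjusted p 0.0435). Hspa9, the matrix Hsp70 that drives import, was at 594, 620.4, 459, 535 and 554 CPM and 472, 384, 406, 441 and 426 CPM, which overlapped through replicate 3 of 3mCON, with -0.38 ± 0.12 (adjusted p 0.0221). At 9 months neither was called, with log2 fold changes of -0.19 ± 0.16 (adjusted p 0.370) for Hspd1 and 0.08 ± 0.12 (adjusted p 0.647) for Hspa9. The difference between the ages was 0.26 for Hspd1 (adjusted p 0.560) and 0.45 for Hspa9 (adjusted p 0.117) and was called for neither. The Hspd1 call was lost in 9 of the 10 fits leaving out 1 library (all but the one without replicate 3 of 3mCON, at the least -0.38 with an adjusted p of 0.123) and without the filter. The Hspa9 call was lost without replicate 1 or 2 of 3mCON or replicate 2 or 3 of 3mTSCmKO (at the least -0.33 with an adjusted p of 0.0672), without the filter and on the TPM scale.

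At 9 months the levels of Hspd1 were 193, 387, 279, 263 and 242 CPM in 9mCON and 260.3, 230.4, 289, 224 and 194 CPM in 9mTSCmKO, and those of Hspa9 were 379.5, 552, 615, 576 and 566 CPM and 480.2, 666, 533, 657 and 499 CPM. The genotypes overlapped for both. Rapamycin gave no call for a matrix chaperone in the fit of all 8 groups. In a fit of only the groups compared, Hspd1 (-0.435, adjusted p 0.0211) and Hspe1 (-0.426, adjusted p 0.0108) were called lower in 3mCON+RM, and without replicate 3 of 3mTSCmKO+RM Hspd1 was called lower in that group (-0.466, adjusted p 0.0344). Hspd1 lay at 169.8, 189, 230.2, 128 and 118 CPM in 3mTSCmKO+RM and 229, 210.3, 202, 222 and 185 CPM in 3mCON+RM. The treated CON libraries all lay below the untreated ones, with a log2 fold change of -0.44 ± 0.16 (adjusted p 0.281).

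Hspe1, the lid of the chaperonin, was at 63.6, 60.96, 56.5, 61.01 and 52.97 CPM in 3mCON, 38.3, 40.1, 48.5, 53.01 and 55.2 CPM in 3mTSCmKO and 45.7, 48.4, 39.2, 45.1 and 40.5 CPM in 3mCON+RM. The treated and untreated CON libraries did not overlap, and neither difference passed the threshold (log2 fold changes -0.43 ± 0.18, adjusted p 0.386 and, for genotype, -0.33 ± 0.18, adjusted p 0.201). Both partners had log2 fold changes below 0 in each of the 3-month comparisons. Hspd1 held 67.6 ± 1.70% of the summed TPM of the pair in 3mCON, 67.7 ± 1.60% in 3mCON+RM and 66.7 ± 3.42% in 3mTSCmKO, against 63.7 ± 1.47% in 3mTSCmKO+RM, and 55.5 ± 4.15% to 61.1 ± 4.56% in the 9-month groups.

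The proteases gave 3 of the 5 rises in 9mTSCmKO. Afg3l2, a subunit of the m-AAA protease of the inner membrane, was at 56.4, 80.9, 89.99, 84.1 and 88.9 CPM in 9mCON and 109, 125, 145, 121 and 107 CPM in 9mTSCmKO. No library of one genotype overlapped the other, and the log2 fold change was 0.60 ± 0.11 (adjusted p 2.42e-05), a call kept under every alternative tried. The 3-month levels of 92.7, 96.4, 82.7, 83.0 and 85.8 CPM in 3mCON and 93.4, 91.9, 95.5, 99.8 and 112 CPM in 3mTSCmKO overlapped, with 0.16 ± 0.11 (adjusted p 0.313). The difference between the ages, 0.44, was not called (adjusted p 0.0849), and was called with upper-quartile scaling and on TPM with limma (0.55, adjusted p 0.0401). Rapamycin left Afg3l2 at 109, 109, 105, 98.5 and 89.9 CPM in 9mTSCmKO+RM, a difference of -0.25 ± 0.11 (adjusted p 0.0715) that missed the threshold and was called in 3 of 18 alternatives.

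Spg7, the other subunit of the m-AAA protease, was at 101, 136, 132, 116 and 122 CPM in 9mCON, 86.4, 117, 91.6, 126 and 113 CPM in 9mTSCmKO and 146, 143, 122, 138 and 115 CPM in 9mTSCmKO+RM. The treated and untreated knockouts overlapped, and the gene rose after rapamycin (0.31 ± 0.09, adjusted p 0.00920). Without replicate 1 of 9mTSCmKO, the lowest library, it was 0.24 with an adjusted p of 0.0510, and the call was also lost in a fit of those 2 groups alone. For genotype at 9 months Spg7 had -0.19 ± 0.09 (adjusted p 0.118), the opposite sign of Afg3l2, called in 2 of 18 alternatives. At 3 months neither genotype nor rapamycin gave a call, with log2 fold changes of 0.12 and -0.06.

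Clpx, the unfoldase of the matrix protease ClpXP, fell with rapamycin in TSCmKO muscle at both ages. It was at 104, 128, 127, 117 and 104 CPM in 9mTSCmKO and 76.99, 89.2, 85.6, 86.7 and 78.1 CPM in 9mTSCmKO+RM, and at 149, 118, 111, 117 and 121 CPM in 3mTSCmKO and 96.2, 93.5, 84.1, 67.2 and 64.99 CPM in 3mTSCmKO+RM. At each age all treated libraries lay below all untreated ones. The log2 fold changes were -0.48 ± 0.11 (adjusted p 0.00117) and -0.60 ± 0.11 (adjusted p 0.000106), and both calls held under every alternative tried. In CON muscle the levels were 82.6, 133, 117, 113 and 109 CPM in 9mCON and 92.3, 91.5, 82.9, 90.4 and 106 CPM in 9mCON+RM. The 3-month levels were 122, 119, 97.1, 119.5 and 118 CPM in 3mCON and 87.6, 94.8, 101, 87.5 and 79.5 CPM in 3mCON+RM. The groups overlapped at both ages, and log2 fold changes of -0.26 ± 0.11 (adjusted p 0.145) and -0.35 ± 0.11 (adjusted p 0.179) missed the threshold, each called in 1 of 18 alternatives. The differences between the genotypes' responses were -0.22 (adjusted p 0.455) and -0.25 (adjusted p 0.507) and were not called.

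Clpp, the proteolytic chamber that Clpx feeds, rose with Tsc1 loss at 9 months and with rapamycin at 3 months. It was at 26.4, 29.7, 22.3, 23.1 and 19.6 CPM in 9mCON, 22.6, 27.2, 33.9, 31.9 and 32.9 CPM in 9mTSCmKO and 37.6, 31.6, 29.3, 33.1 and 32.4 CPM in 9mTSCmKO+RM. The vehicle groups overlapped, and the rise with genotype was 0.29 ± 0.11 (adjusted p 0.0307). At 3 months it was at 17.7, 21.6, 19.7, 21.7 and 21.8 CPM in 3mTSCmKO and 24.7, 28.8, 22.8, 25.4 and 25.97 CPM in 3mTSCmKO+RM, which did not overlap, with a log2 fold change of 0.32 ± 0.11 (adjusted p 0.0301). The 9-month genotype call was lost without replicate 3, 4 or 5 of 9mCON or of 9mTSCmKO (at the least 0.25 with an adjusted p of 0.0842), and the 3-month rapamycin call in 5 of 10 such fits (3mTSCmKO replicates 1 and 3 or 3mTSCmKO+RM replicates 2, 4 and 5, at the least 0.27 with an adjusted p of 0.0967). Both calls were also lost without the filter, and the genotype call in a fit of only the groups compared.

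Lonp1, the main matrix protease, rose in 9mTSCmKO (0.26 ± 0.10, adjusted p 0.0294), with libraries at 60.5 to 92.3 CPM in 9mCON and 84.1 to 112 CPM in 9mTSCmKO that overlapped. The call was lost without replicate 1 or 2 of 9mCON or replicate 2 or 4 of 9mTSCmKO (at the least 0.17 with an adjusted p of 0.131), without the filter and in a fit of only the groups compared. Yme1l1, the i-AAA protease that faces the intermembrane space, was not called in any comparison and lay at 76.2 to 112 CPM in 9mCON and 81.8 to 96.8 CPM in 9mTSCmKO.

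Both mitofusins, which tether and fuse outer membranes, fell with rapamycin in TSCmKO muscle at 3 months. Mfn2 was at 818, 955, 862, 937 and 938 CPM in 3mTSCmKO and 673, 560.0, 533, 548 and 559.8 CPM in 3mTSCmKO+RM, and Mfn1 at 373, 344, 364, 360.1 and 387 CPM and 286, 256, 256, 230.4 and 229.7 CPM. For both genes every treated library lay below every untreated one. The log2 fold changes were -0.65 ± 0.13 (adjusted p 0.000335) for Mfn2 and -0.54 ± 0.11 (adjusted p 0.000430) for Mfn1. Both calls held under every alternative tried. In 3mCON the levels of Mfn2 were 736, 785, 779, 794 and 627 CPM with vehicle and 624, 593, 642, 666 and 649.8 CPM with rapamycin, and the log2 fold change of -0.23 ± 0.13 (adjusted p 0.669) was not called. The vehicle-treated knockouts all lay above the vehicle-treated CON libraries for Mfn2, with 0.28 ± 0.13 (adjusted p 0.148), a difference called in a fit of only the groups compared.

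At 9 months the mitofusins were not called for rapamycin. Mfn2 was at 521, 852, 501, 773 and 729 CPM in 9mTSCmKO and 567, 633, 615, 560.3 and 511 CPM in 9mTSCmKO+RM, and Mfn1 at 228, 353, 232, 349 and 287 CPM and 268, 299, 290.4, 275 and 261 CPM. The untreated knockouts spread widely and overlapped the treated ones. The log2 fold changes were -0.23 ± 0.13 (adjusted p 0.197) and -0.05 ± 0.11 (adjusted p 0.746). Whether the responses at 3 and 9 months differ was not tested. The share of Mfn2 in the summed TPM of the pair lay between 55.1 ± 1.53% (9mTSCmKO+RM) and 58.8 ± 1.01% (9mTSCmKO) in all 8 groups. In the 9mTSCmKO libraries it was 57.76% to 59.98% and in 9mTSCmKO+RM 52.5% to 56.4%, which did not overlap. Opa1, which fuses inner membranes, was not called in any comparison, with log2 fold changes of -0.24 ± 0.13 (adjusted p 0.130) for genotype and 0.20 ± 0.13 (adjusted p 0.226) for rapamycin at 9 months. The genotype difference was called in 2 of 18 alternatives (-0.375, adjusted p 0.00786 without replicate 1 of 9mCON), and Opa1 was called lower in 9mCON than in 3mCON without replicate 5 of 9mCON (-0.411, adjusted p 0.0379).

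Dnm1l, the dynamin-related GTPase that constricts mitochondria, was lower with rapamycin in both genotypes and at both ages. Its per-library values were chosen for display after they had been seen. At 9 months they were 113, 163, 143, 152 and 148 CPM in 9mTSCmKO and 92.3, 112, 104, 106 and 90.1 CPM in 9mTSCmKO+RM, and 86.04, 106, 136, 123 and 147 CPM in 9mCON and 70.9, 75.9, 72.4, 94.4 and 73.2 CPM in 9mCON+RM. The knockout groups did not overlap, and the CON groups overlapped through replicate 1 of 9mCON. The log2 fold change was -0.51 ± 0.12 (adjusted p 0.000987) in TSCmKO and -0.63 ± 0.12 (adjusted p 0.000516) in CON.

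The 3-month levels of Dnm1l were 143, 143, 133, 119 and 125 CPM in 3mTSCmKO and 101, 100.3, 105, 82.6 and 75.8 CPM in 3mTSCmKO+RM, and 117, 126, 101, 97.4 and 103 CPM in 3mCON and 85.8, 72.7, 81.3, 70.4 and 82.4 CPM in 3mCON+RM. Treated and untreated libraries did not overlap in either genotype. The log2 fold change was -0.52 ± 0.12 (adjusted p 0.00117) in TSCmKO and -0.47 ± 0.12 (adjusted p 0.0485) in CON. The last call was lost in each of the 10 fits leaving out 1 library (at the least -0.41 with an adjusted p of 0.165, without replicate 2 of 3mCON) and under 5 other alternatives, TPM with limma among them. The other 3 calls held under every alternative. The difference between the genotypes' responses was 0.11 (adjusted p 0.748) at 9 months and -0.04 (adjusted p 0.955) at 3 months, neither of them called. In the untreated knockouts Dnm1l was above CON by 0.27 (adjusted p 0.0690) in the older and 0.29 (adjusted p 0.0833) in the younger mice, which missed the threshold and were called in 3 and 1 of 18 alternatives.

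Fis1, an outer-membrane fission factor, fell with rapamycin in TSCmKO muscle at both ages. It was at 83.6, 74.8, 119, 94.4 and 85.6 CPM in 9mTSCmKO and 73.4, 57.5, 50.4, 64.7 and 60.1 CPM in 9mTSCmKO+RM, and at 57.1, 61.7, 61.7, 71.7 and 69.99 CPM in 3mTSCmKO and 51.2, 53.3, 46.8, 50.95 and 50.8 CPM in 3mTSCmKO+RM. Treated libraries lay below untreated ones at both ages, without overlap. The log2 fold changes were -0.58 ± 0.13 (adjusted p 0.000818) and -0.35 ± 0.13 (adjusted p 0.0497). The 3-month call was lost in 9 of 10 fits without 1 library (3mTSCmKO replicates 2, 3, 4 and 5 or 3mTSCmKO+RM replicates 1, 2, 3, 4 and 5, at the least -0.30 with an adjusted p of 0.133) and with RLE size factors, upper-quartile scaling, no filter, the replicate block or insert size as a term, and the 9-month call held throughout. Mff, the main receptor for Dnm1l, fell at 3 months with -0.44 ± 0.15 (adjusted p 0.0324) from 121 to 171 CPM in 3mTSCmKO to 102 to 130 CPM in 3mTSCmKO+RM, which overlapped, and this call was lost in 6 of 10 such fits (3mTSCmKO replicates 1, 3 and 4 or 3mTSCmKO+RM replicates 2, 4 and 5, at the least -0.39 with an adjusted p of 0.0878), with upper-quartile scaling and without the filter. At 9 months Mff was not called, with -0.13 ± 0.15 (adjusted p 0.529).

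**Figure D4:**
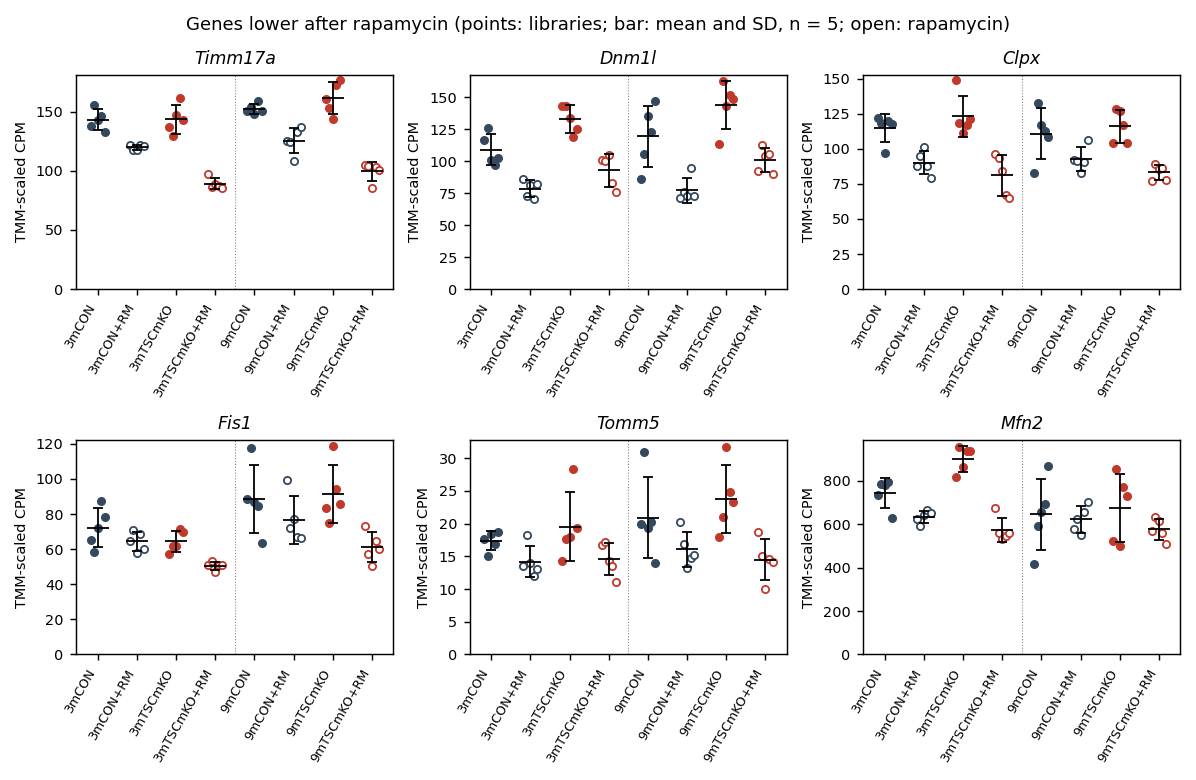
TMM-scaled CPM of 6 genes called lower with rapamycin, in every library (points, red for TSCmKO, blue for CON, open for rapamycin) with the group mean and SD (bars, n = 5). Open red points lie below all filled red points at both ages for Timm17a, Dnm1l, Clpx and Fis1, and at 3 months for Mfn2.

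The rapamycin responses of the members at the 2 ages in TSCmKO muscle, which share no library, were compared gene by gene. Of the 8 members called at 9 months and the 9 called at 3 months, 5 were called at both ages and all 5 fell (Clpx, Fis1, Timm22, Dnm1l and Timm17a). The 3-month calls of Fis1 and Timm22 were lost in 9 and 8 of the 10 fits leaving out 1 library. Among all 13543 genes tested, 1930 were called at both ages, of 4410 at 9 months and 3196 at 3 months. Of these 1930 genes, 974 fell at both ages. Pearson's r between the log2 fold changes was 0.62 across the 38 members and 0.55 across all 13543 genes, a description across genes, which are not independent replicates. The sign was shared by 28 of the 38 members and by 9435 of the 13543 genes. For genotype, Timm10 was the one member called at both ages, of 1876 genes called at both, and r was 0.63 across the members and 0.64 across all genes. For rapamycin in CON muscle, Dnm1l was the one member called at both ages, of 69 genes called at both, with its 3-month call lost in each fit that left out 1 library, and r was 0.70 across the members and 0.24 across all genes.

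**Figure D5:**
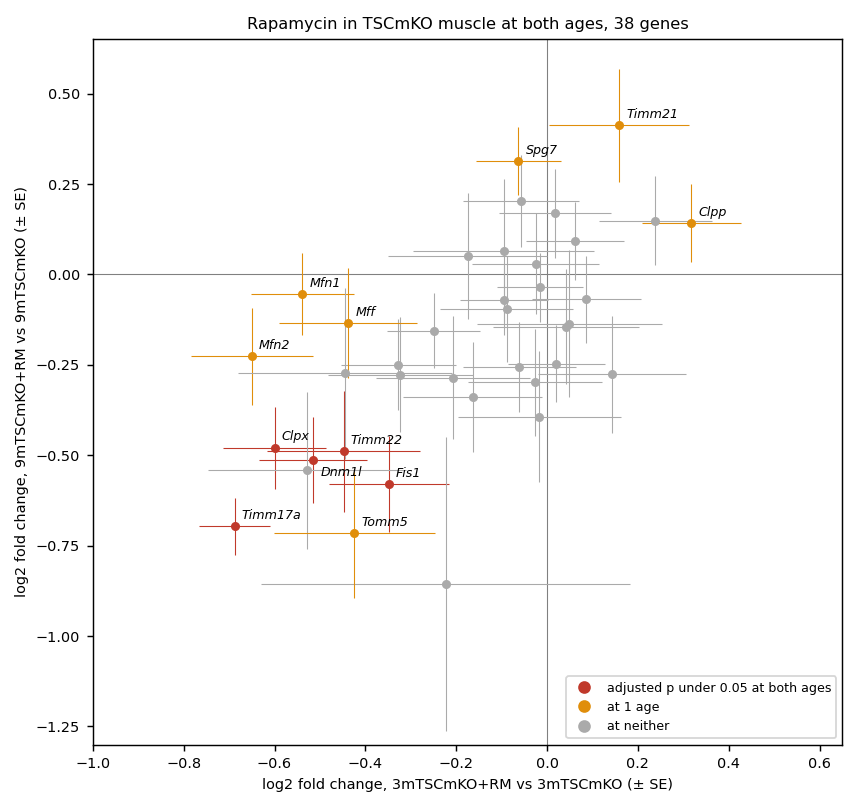
Log2 fold change of the 38 genes with rapamycin in TSCmKO muscle at 3 months (horizontal) and 9 months (vertical), each with its SE as lines, red where called at both ages, orange at 1 age and grey at neither. The 5 red genes (Clpx, Fis1, Timm22, Dnm1l and Timm17a) all lie below 0 at both ages.

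Rapamycin-treated knockouts were also compared with vehicle-treated CON, which asks where treated muscle stood relative to untreated control. These comparisons share their libraries with those above. At 9 months 4 members were higher (Tomm70a, Clpp, Tomm34 and Afg3l2) and 5 lower (Timm17a, Fis1, Tomm5, Hspd1 and Clpx), with 31.9% of all genes called (15.7% higher, 16.2% lower). Tomm70a, a TOM receptor for carrier proteins, was the highest in fold, at 114.7 ± 12.3 CPM against 83.5 ± 18.1 CPM (0.46 ± 0.12, adjusted p 0.00388). Timm17a was the lowest on counts, with -0.61 ± 0.08 (adjusted p 1.19e-07), and had -0.28 on log2(TPM + 1) by limma (adjusted p 0.0327), where Fis1 was the lowest member with -0.45 (adjusted p 0.000571). The call for Tomm34 was lost without 1 of 4 libraries (9mCON replicates 3, 4 and 5 or 9mTSCmKO+RM replicate 1, at the least 0.31 with an adjusted p of 0.0680), that for Afg3l2 without replicate 1 of 9mCON (0.25, adjusted p 0.0555), those for Hspd1 and Tomm5 without replicate 2 of 9mCON or replicate 3 of 9mTSCmKO+RM (with -0.30 and -0.34 at the least), and those for Clpx and Hspd1 on TPM. In a fit of only the groups compared the calls for Tomm34, Afg3l2, Hspd1 and Tomm5 were lost, and with insert size as a term those for Tomm34 and Hspd1.

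At 3 months 1 member was higher (Tomm34) and 7 were lower (Hspd1, Timm17a, Fis1, Clpx, Hspe1, Mfn1 and Mfn2), with 16.7% of all genes called (8.98% higher, 7.71% lower). Tomm34 was at 22.5 ± 2.38 CPM against 16.9 ± 2.62 CPM (0.41 ± 0.12, adjusted p 0.0169), and at 9 months at 25.1 ± 2.65 CPM against 19.5 ± 2.91 CPM (0.36 ± 0.13, adjusted p 0.0236). On counts Hspd1 was the lowest of these, with -0.77 ± 0.16 (adjusted p 0.000569), and its partner Hspe1 had -0.50 ± 0.18 (adjusted p 0.0435). Timm17a had -0.68 ± 0.08 (adjusted p 4.22e-08) on counts and -0.36 on TPM by limma (adjusted p 0.0123). The Tomm34 call was lost without replicate 2 of 3mCON (0.36, adjusted p 0.0595), the Mfn2 call in 8 of 10 fits without 1 library (3mCON replicates 1, 2, 3 and 4 or 3mTSCmKO+RM replicates 2, 3, 4 and 5, at the least -0.34 with an adjusted p of 0.110), the Hspe1 call in 7 (3mCON replicates 1, 2, 3 and 4 or 3mTSCmKO+RM replicates 1, 4 and 5, at the least -0.41 with an adjusted p of 0.140), and those of Mfn1 and Mfn2 on TPM. The Mfn2 call was also lost with RLE size factors, and the Mfn2 and Hspe1 calls without the filter.

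Age in CON muscle called no member by edgeR, with 1.02% of all genes called (0.679% higher, 0.340% lower). An unadjusted edgeR p under 0.05 was reached by 8 of the 38 members and by 2384 of the 13543 genes. DESeq2 called 1 member, Timm22, higher, and 233 of all genes. The edgeR log2 fold change of Timm22 was 0.557 (adjusted p 0.0777), which was 0.367 above its value on TPM. The median over all 38 members was 0.12 beside 0.01 for all genes on counts, 0.01 beside -0.10 on TPM, and 0.199 beside 0.003 with insert size as a term. On counts 26 of the 38 members and 7032 of the 13543 genes lay above 0, and on TPM 19 and 4390. Transcript length moved with age, with medians of 0.124 for all genes with a median coding transcript under 1000 nt and -0.015 for longer ones, and of 0.266 and 0.084 for the 14 shorter and 24 longer members, and the part of length was not tested. The difference between the genotype effects at the 2 ages was called for no member by edgeR with TMM scaling or by DESeq2, and for Afg3l2 with upper-quartile scaling, against 4.94% of all genes by edgeR (3.01% higher, 1.93% lower). For this difference 3 members and 2647 of the 13543 genes had an unadjusted p under 0.05 by edgeR.

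Other genes of the same systems are given by list. Of 22 further import genes tested, 5 rose and 3 fell in 9mTSCmKO against 9mCON, 4 rose and 4 fell with rapamycin in 9mTSCmKO, and 3 rose and 2 fell with rapamycin in 3mTSCmKO. Mtx2, a partner of the outer-membrane sorting machinery, had the largest rise in 9mTSCmKO (70.8 ± 16.7 against 38.4 ± 9.49 CPM, log2 fold change 0.88 ± 0.16, adjusted p 3.6e-05), followed by Chchd4, the oxidoreductase that traps small TIM proteins in the intermembrane space (0.56, adjusted p 0.00697), and Pmpcb, a subunit of the presequence peptidase (0.39, adjusted p 0.0156). Pmpca, the other subunit of that peptidase, fell (-0.37, adjusted p 0.00425), as did the intermediate peptidase Mipep (-0.51, adjusted p 0.00109) and Agk (-0.43, adjusted p 0.00477).

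Of 13 further genes of mitochondrial proteostasis and its stress response, 3 rose and 3 fell with Tsc1 loss at 9 months, 3 rose and 4 fell with rapamycin in 9mTSCmKO, and 3 rose and 2 fell with rapamycin in 3mTSCmKO. The rises in 9mTSCmKO were Ddit3 (CHOP), a stress-response transcription factor (36.2 ± 11.3 against 12.8 ± 3.17 CPM, log2 fold change 1.49 ± 0.18, adjusted p 1.08e-08), Atf5, a transcription factor of the mitochondrial unfolded protein response (108 ± 13.6 against 54.7 ± 2.54 CPM, 0.97, adjusted p 7.58e-07), and the disaggregase Clpb (0.37, adjusted p 0.00079). The falls were Dnaja3, a co-chaperone of Hspa9 (-0.49), the protease Oma1 (-0.48) and the chaperone Trap1 (-0.28), with adjusted p of 0.00168, 0.0156 and 0.0367.

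Of 16 further dynamics genes tested, 2 rose and 2 fell with Tsc1 loss at 9 months, 3 rose and 2 fell with rapamycin in 9mTSCmKO, and 4 fell with rapamycin in 3mTSCmKO. Gdap1, an outer-membrane protein of fission altered in an inherited neuropathy, had the largest change of all lists, at 16.4 ± 3.37 CPM in 9mTSCmKO against 98.5 ± 11.5 CPM in 9mCON (log2 fold change -2.59 ± 0.19, adjusted p 1.71e-13). Rhot1, which links mitochondria to motor proteins, fell (-0.41, adjusted p 0.0111), and the motor adaptor Trak2 (0.70, adjusted p 0.00189) and the Dnm1l receptor Mief1 (0.32, adjusted p 0.00706) rose. Of 13 regulators of mitochondrial biogenesis, 2 rose and 1 fell with Tsc1 loss at 9 months. These were the nuclear receptors Esrrg (1.22, adjusted p 0.000775) and Esrrb (1.09, adjusted p 0.00065), which rose, and the coactivator Pprc1 (-0.32, adjusted p 0.0237), which fell. With rapamycin in TSCmKO muscle, 4 of the regulators rose and 1 fell at 9 months, and 3 fell at 3 months.

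The products that the import machinery serves include the nuclear-encoded subunits of the respiratory chain, of which 81 were tested. With Tsc1 loss 6 fell at 9 months and 4 at 3 months, with medians of -0.04 and -0.08 beside -0.02 and -0.02 for all genes. The falls at 9 months included Ndufa4l2 (-0.91), Ndufs1 (-0.65) and Ndufs7 (-0.52). With rapamycin in TSCmKO muscle 15 of the 81 fell and 2 rose at 9 months (median -0.29) and 4 fell at 3 months (median -0.21). Of all genes, 16.8% fell at 9 months (median -0.045) and 13.0% at 3 months (median 0.01). In CON muscle the medians of the subunits were -0.20 and -0.12, beside -0.015 and -0.004 for all genes. Transcript length moved with the 9-month response in TSCmKO muscle. The 2203 genes with a median coding transcript under 1000 nt in the annotation had a median of -0.12 and the 10456 longer ones -0.02, and for the 14 shorter and 24 longer members the medians were -0.28 and -0.115. At 3 months the medians were -0.03 and 0.01 over all genes and -0.27 and -0.06 over the members, and the part of length in these results was not tested. Compared with vehicle-treated CON, rapamycin-treated knockouts had 22 of these subunits lower at 9 months (median -0.32 beside -0.03 for all genes) and 7 lower at 3 months (median -0.25 beside -0.01). The shares of all genes called in each comparison, given above, are the background of these counts, and the lists as such were not tested.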

How the data were processed

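Poly(A) RNA of 40 whole EDL muscles (8 groups of 5) was sequenced as stranded single-end libraries. According to the submitters' processing notes, the authors trimmed reads with cutadapt 1.9.1 and assigned them by strand to GRCm38 protein-coding Ensembl transcripts with kallisto 0.43.1. The deposited values are estimated counts per gene, given as whole numbers and used as such, and a second deposited table holds TPM made by the authors from the same assignment. Estimated counts depend on how reads are shared between transcripts, and TPM also on transcript length. Library totals of 8883870 to 35224669 estimated counts set the precision.

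Genes with at least 1 CPM in 5 libraries (13543 of 22844) were fitted with edgeR 4.0.16 in R 4.3.3 (TMM scaling, robust quasi-likelihood, all 8 groups in one fit), with Benjamini-Hochberg adjustment over all 13543 genes and a threshold of 0.05. From this fit 12 contrasts were taken, 9 pairwise and 3 interactions. SE is the log2 fold change divided by the square root of F. TPM was tested with limma 3.58.1 on log2(TPM + 1), an alternative chosen after seeing the data. In simulated counts for 9mTSCmKO against 9mCON over 13543 genes, 95% of 200 genes changed 2-fold were recovered, with 3.55% of calls false. The 200 genes were drawn from those above 5 CPM. The largest log2 fold change of a member in a pairwise comparison was -0.856 (Tomm7), less than 2-fold. Recovery of changes as small as those of the members was not simulated.

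The members and lists were chosen with earlier results of these data known. Values in every library were given by rule for 18 members: the 3 with the largest rise and the 3 with the largest fall past the threshold, at a mean of at least 5 CPM, in each genotype comparison and each rapamycin comparison in TSCmKO muscle, and the 4 paralog or partner pairs (Tomm40 and Tomm40l, Timm17a and Timm17b, Hspd1 and Hspe1, Mfn1 and Mfn2). Of the other lists, the 3 with the largest rise and fall at 9 months were named. Tsc1 checked the labels, and Dnm1l was added after its values were seen. The other alternatives were RLE and upper-quartile scaling, no filter, DESeq2 1.42.0, only the groups compared, the replicate number as a block, mean insert size as a term, and each library left out in turn.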

Additional observations from a re-analysis of the deposited data

Results flagged for a closer look

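Of the 144 groups of 5 libraries examined for the 18 members described per library by rule, 10 held a library whose gap to its nearest neighbour exceeded the critical share of the group's range, and chance alone gives about 1 in 20 groups. Dnm1l, added later, was not among the members examined. Its replicate 4 in 9mCON+RM was at 94.39 CPM, the others at 70.93 to 75.89 CPM. In 9mCON, replicate 1 was low for Afg3l2 (56.39 CPM, the others 80.9 to 89.99 CPM) and for Hspa9 (379.5 CPM, the others 551.9 to 614.6 CPM). In 9mTSCmKO+RM, replicate 3 was low for Timm21 (13.16 CPM, the others 16.77 to 18.13 CPM) and for Timm17a (85.59 CPM, the others 100.3 to 104.7 CPM), and replicate 1 was high for Tomm40 (37.24 CPM, the others 23.37 to 26.21 CPM).

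In 3mTSCmKO+RM, replicate 1 was high for Timm17a (97.64 CPM, the others 85.81 to 89.09 CPM) and for Mfn2 (672.9 CPM, the others 533.3 to 560.0 CPM). Clpx was low in replicate 3 of 3mCON (97.12 CPM, the others 117.6 to 121.6 CPM) and high in replicate 1 of 3mTSCmKO (148.7 CPM, the others 110.9 to 121.2 CPM). Tomm40l was high in replicate 1 of 9mCON+RM (55.66 CPM, the others 34.04 to 38 CPM).

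The fall of Timm17a with rapamycin differed between the genotypes on counts, by -0.418 on the log2 scale at 9 months (adjusted edgeR p 0.0215) and by -0.432 at 3 months (adjusted edgeR p 0.0195). On TPM with limma the differences were -0.12 (adjusted p 0.702) and -0.21 (adjusted p 0.6002).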

How the results depend on the processing

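Counts of members called that moved by more than 1.5 times were the following. Without the filter on low counts, 3 were higher for genotype at 9 months and 0 lower at 3 months. For rapamycin without the filter, 0 were higher and 5 lower in TSCmKO at 3 months, 1 was lower in CON at 9 months and 0 at 3 months, and the rapamycin by genotype interactions called 0 lower at both ages. In fits of only the groups compared, 2 were higher for genotype at 9 months and 4 at 3 months, and 0 were higher with rapamycin in TSCmKO at 9 months. In the same fits 1 was lower with rapamycin in CON at 9 months and 4 at 3 months, rapamycin-treated knockouts against CON had 2 higher and 3 lower at 9 months and 2 higher at 3 months, and the interactions called 0 lower at 9 months and 2 at 3 months. With upper-quartile scaling, 5 were lower with rapamycin in TSCmKO at 3 months, 2 were higher in treated 3-month knockouts against CON and 1 was higher for the genotype by age interaction. For rapamycin in CON at 3 months, 0 were lower with RLE size factors, the replicate block, insert size as a term (a fit without 9mTSCmKO+RM replicate 5, which has no insert size) or TPM with limma, and 2 were lower with DESeq2. DESeq2 called 2 higher in treated 3-month knockouts against CON and 1 higher with age in CON. TPM with limma called 1 lower for genotype at 3 months and 2 higher in treated 3-month knockouts against CON. It called 1 higher for the genotype by age interaction and 0 lower for either rapamycin by genotype interaction. Counts over all 13543 genes moved too in fits of only the groups compared. Genes called higher for genotype went from 2580 to 1486 at 9 months and from 1549 to 2074 at 3 months. Genes called lower with rapamycin in CON at 3 months went from 43 to 201, and were 43 on TPM with limma. Without the filter, genes called lower for genotype at 3 months went from 1127 to 857. The moves were thus not confined to the members, and their cause was not tested.

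Leaving out 1 library gave 3 to 7 higher and 1 to 3 lower for genotype at 9 months (3 higher without 9mCON replicate 1 or 9mTSCmKO replicate 4), and 0 to 1 higher and 0 to 2 lower at 3 months (0 higher without 3mTSCmKO replicate 4). For rapamycin in TSCmKO it gave 0 to 2 higher and 5 to 12 lower at 9 months (12 without 9mTSCmKO+RM replicate 1, 10 without 9mTSCmKO replicate 2 or 5), and 0 to 1 higher and 5 to 8 lower at 3 months (5 without 3mTSCmKO replicate 3 or 4 or 3mTSCmKO+RM replicate 4 or 5). In CON it gave 1 to 3 lower at 9 months and 0 lower at 3 months. Treated knockouts against CON had 3 to 4 higher and 3 to 8 lower at 9 months, and 0 to 2 higher and 5 to 7 lower at 3 months. Age gave 0 to 1 higher and 0 to 1 lower, and each rapamycin by genotype interaction 0 to 1 lower. The shares of all genes called in the fits without 1 library are not given here.

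Of the 48 calls of single members, recomputed as 884 values, 732 values kept the call, 152 lost it and 0 changed direction, and 22 calls were never lost. Of 140 correlations between libraries with the same replicate number (-0.363 to 0.412), 28 were over 0.1, and in no pair of groups were all 5, and the edgeR fit of all 8 groups has no replicate block.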
